A study of Ovis aries with 12 samples.

Results

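The genes described here encode the subunits of the proteasome and the factors that assemble its cap. They were taken by name: every gene of the expression table called PSMA, PSMB, PSMC or PSMD followed by a number, which gave 39 of 21257 genes. Of these, 19 belong to the core particle (8 alpha subunits, 7 constitutive beta subunits, 3 inducible beta subunits and 1 thymic beta subunit). The other 20 belong to the regulatory particle (6 ATPases, 3 base subunits that are not ATPases, 8 lid subunits and 3 assembly chaperones). Their messenger RNA was read from 12 RNA sequencing libraries made from Tan sheep (Ovis aries) aged 5 months. There were 3 libraries for each of 4 diets, namely a basal diet and that same diet supplemented with 0.5%, 1% or 2% succinate, a short dicarboxylic acid that rumen microbes make. The trial held 36 sheep, 9 per diet, and whether each library came from a separate animal is not given in the sources used here, so the p-values cover only the spread between libraries, which may be technical. No tissue is named in the labels, and the series title concerns rumen epithelial cells. Marker levels given below were far higher for smooth muscle than for stratified epithelium. The levels reported here are therefore not read as those of an epithelium.

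The proteasome is the protease that degrades proteins tagged with ubiquitin. Its core particle is a barrel of stacked rings: the outer rings of alpha subunits form the gate, and the inner rings of beta subunits hold the proteolytic sites. The regulatory particle caps the barrel. Its lid removes ubiquitin, its base binds ubiquitin, and a ring of ATPases in the base unfolds the substrate and threads it into the core. In immune cells, and in other cells under interferon, the catalytic subunits PSMB6, PSMB7 and PSMB5 are replaced in new particles by PSMB9, PSMB10 and PSMB8, which gives the immunoproteasome and favours peptides that fit major histocompatibility complex (MHC) class I.

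Levels were deposited as FPKM, that is, fragments counted on a gene per 1000 bases of its length and scaled to the number of fragments in the library. The libraries held 15489883 to 18717309 reads assigned to genes, of which the proteasome genes took 37304 to 57957, or 0.235% to 0.347%. A pair of libraries at 1% succinate, replicates 2 and 3, stood apart. There, genes stood the higher above their mean over all libraries the longer they were (Spearman 0.58 and 0.43 across the 12095 genes tested). The strongest trend of all libraries was the reverse one in 0.5% replicate 2 (-0.63), and the 9 other values ranged from -0.37 to 0.28. Smooth muscle markers summed to 31160 to 56501 FPKM per library. The 11 markers of stratified epithelium summed to 0.431 to 11.9 FPKM per library, highest in replicate 3 of the 1% diet. Of these, KRT5, KRT15, KRT4, TP63, IVL and DSG3 had 0 reads in all 12 libraries, and 1, SBSN, passed the filter on low values. In bulk samples such as these, fewer cells of a type and less RNA per cell cannot be told apart.

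The constitutive core subunits were abundant and close to each other in level. PSMB4, a beta subunit without proteolytic activity, had the highest mean of the family, 128 FPKM over the 12 libraries, above 96.7% of the genes tested. Among the alpha subunits the means ran from 40.8 FPKM for PSMA5 to 112 FPKM for PSMA2, and among the constitutive beta subunits from 49.9 FPKM for PSMB2 to 128 FPKM for PSMB4. The 3 catalytic subunits lay in the lower part of that range. PSMB7, of the trypsin-like site, averaged 65.3 FPKM, PSMB6, of the caspase-like site, 67.9 FPKM, and PSMB5, of the chymotrypsin-like site, 57.1 FPKM. A pair of further genes on chromosome 10, annotated as similar to PSMB6, averaged 11.4 and 3.92 FPKM, so that reads of PSMB6 may be split between copies and its level is uncertain.

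The regulatory particle was spread more widely. Its highest member was PSMD4, the ubiquitin receptor also called Rpn10, at 116 FPKM. The ATPases ran from 25.1 FPKM for PSMC4 to 102 FPKM for PSMC3, and the lid from 18.7 FPKM for PSMD14, the deubiquitinase of the lid, to 88.3 FPKM for PSMD7, its partner in that enzyme. The 3 chaperones of base assembly were the scarcest, with PSMD10 (gankyrin) at 11.9, PSMD5 at 17.8 and PSMD9 at 18.3 FPKM. The median of the member means was 82.3 FPKM for the 14 constitutive core subunits and 50.8 FPKM for the 20 genes of the regulatory particle. These 20 include the 3 scarce chaperones. With the inducible subunits included, the 17 tested core genes had a median of 67.9 FPKM. PSMD1, the largest base scaffold, overlaps HTR2B by 15211 bases on the opposite strand, and PSMC1 overlaps NRDE2 by 464 bases. The strand setting of the counting is not given in the sources used here, so reads in these overlaps cannot be told apart.

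Members with restricted expression were at or near 0. PSMB11, the beta subunit of the thymus, had 0 reads in 11 libraries and 1 read in replicate 3 of the 0.5% diet. PSMA8, the alpha subunit of the testis, had 2 to 14 reads per library and averaged 0.175 FPKM, and it overlaps SS18 by 817 bases on the opposite strand. Both fell short of the filter of at least 1 FPKM in at least 3 libraries, and the other 37 members, 17 of the core and 20 of the regulatory particle, were tested.

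**Figure D1:**
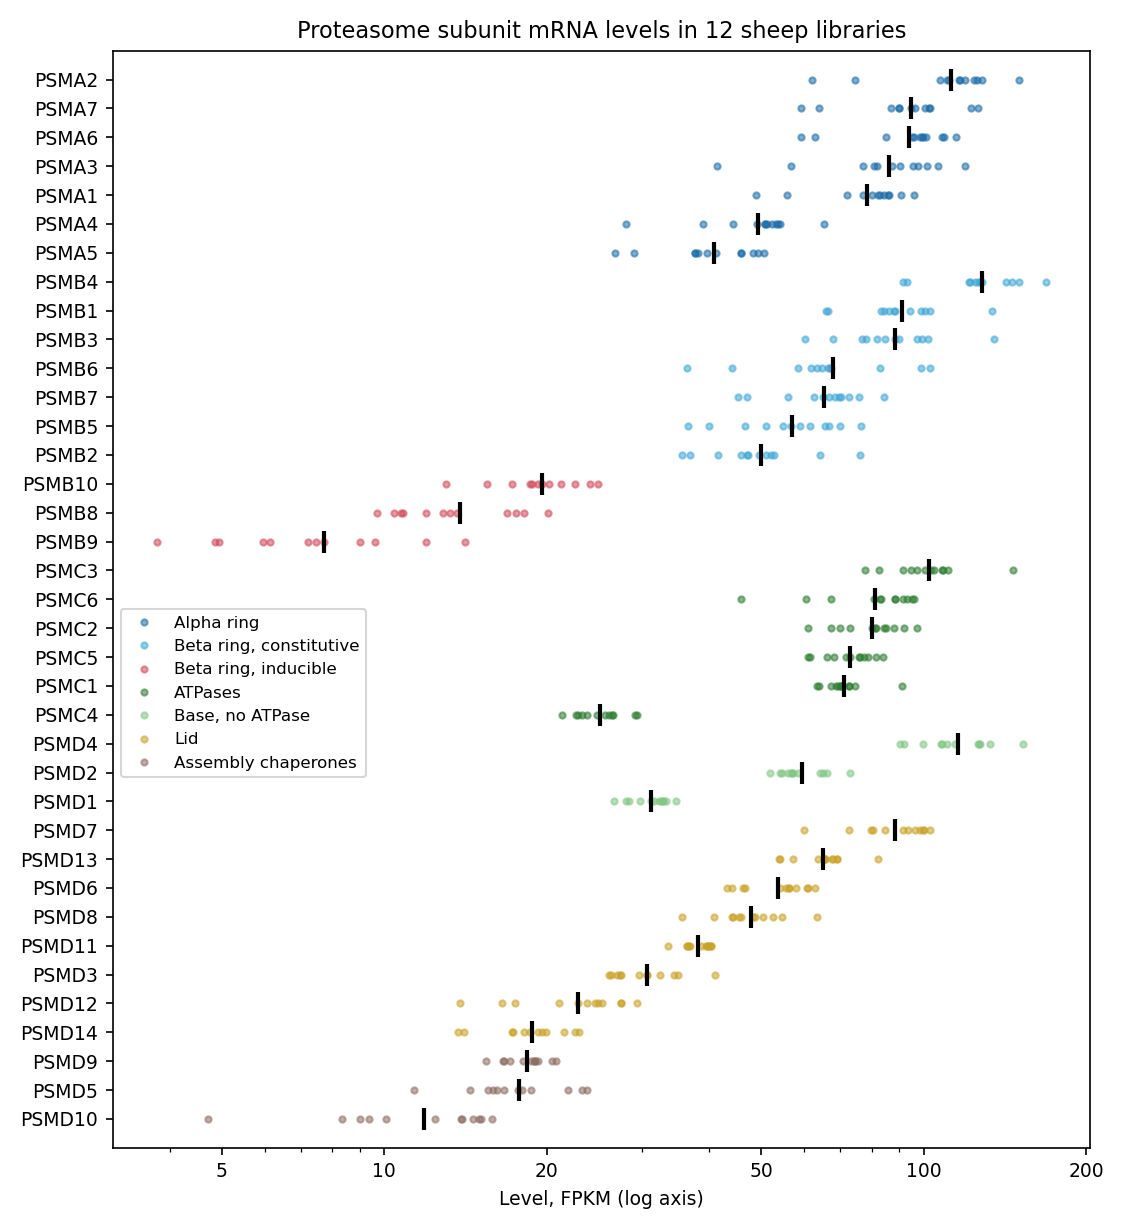
Level of each of the 37 tested proteasome genes in the 12 libraries, in FPKM on a log axis, with 1 row per gene, coloured by subgroup; points are libraries and the black bar is the mean. The constitutive core subunits lie between 40.8 and 128 FPKM on average, and the 3 inducible subunits between 7.73 and 19.6 FPKM.

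The inducible subunits stood below the constitutive ones they replace in every library. PSMB10 averaged 19.6 FPKM, PSMB8 13.8 FPKM and PSMB9 7.73 FPKM, the lowest of the tested core genes. PSMB8 and PSMB9 flank the peptide transporter gene TAP1 in the class II region of the MHC. PSMB8 lies on chromosome 20 from 7324795 to 7328859, TAP1 from 7329386 to 7338319 and PSMB9 from 7338672 to 7345197. Between neighbours lie 526 and 352 bases. Positions are those of the deposited table, whose build is not given, and chromosome numbers come from the RefSeq gene table. PSMB10 lies elsewhere, on chromosome 14 from 34980418 to 34982946.

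The share of each inducible subunit was expressed as a percent of its constitutive counterpart in the same library, a measure that does not move with the scaling of libraries. PSMB8 stood at 14.9%, 30.2% and 37.6% of PSMB5 on the basal diet, at 14.8%, 22.03% and 24.9% at 0.5%, at 23.5%, 32.1% and 29.4% at 1% and at 30.8%, 19.1% and 21.4% at 2% succinate. PSMB9 stood at 7.56%, 21.1% and 18.9% of PSMB6 on the basal diet, at 7.995%, 8.78% and 9.30% at 0.5%, at 8.85%, 16.9% and 11.02% at 1% and at 14.5%, 6.50% and 11.1% at 2% succinate. PSMB10 stood at 28.1%, 34.3% and 31.9% of PSMB7 on the basal diet, at 26.6%, 29.6% and 28.2% at 0.5%, at 28.8%, 33.03% and 41.1% at 1% and at 31.1%, 23.2% and 27.6% at 2% succinate. The diets overlapped in all 3 ratios, and replicate 1 of the basal diet was the lowest of its diet in each. Over the 12 libraries the ratios averaged 25.1% ± 7.09 for PSMB8, 11.9% ± 4.81 for PSMB9 and 30.3% ± 4.54 for PSMB10 (SD, n = 12). An exact permutation test of the F statistic over all 369600 assignments of diets gave p = 0.604 for PSMB8 to PSMB5, 0.460 for PSMB9 to PSMB6 and 0.203 for PSMB10 to PSMB7, with an adjusted p of 0.604 for each over the 3 ratios.

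**Figure D2:**
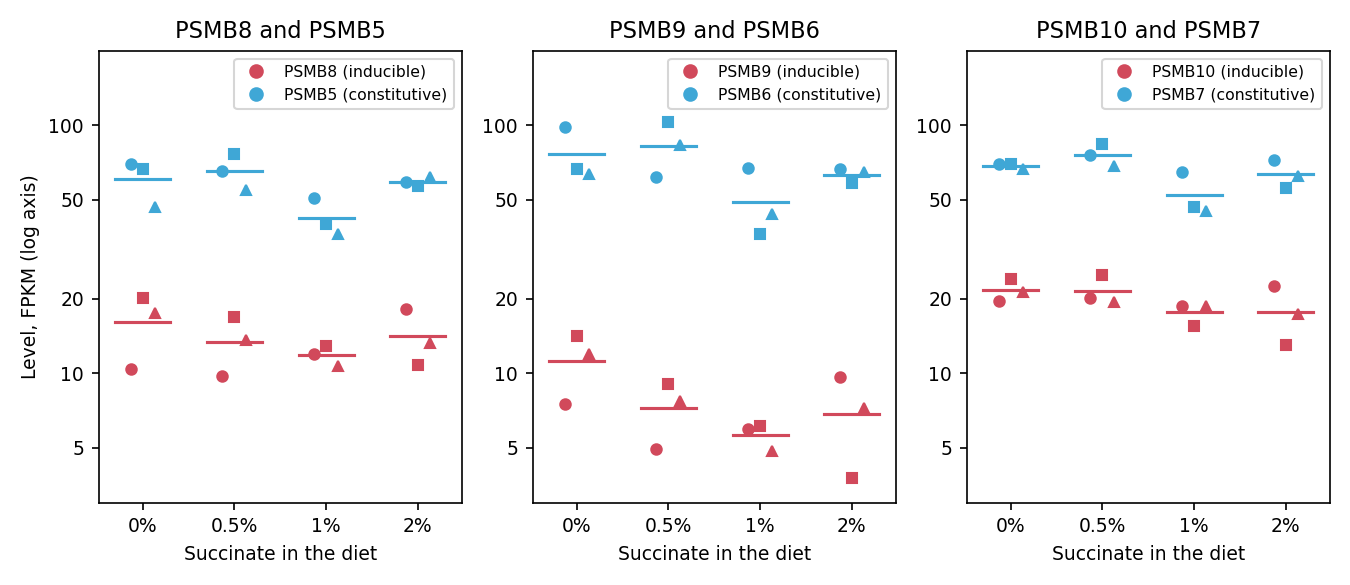
Levels of the inducible subunits and of the constitutive subunits they replace, in FPKM on a log axis, by succinate in the diet; each symbol is a library (circle, square and triangle for replicates 1, 2 and 3) and the horizontal bars are diet means. PSMB8, PSMB9 and PSMB10 lie below PSMB5, PSMB6 and PSMB7 in all 12 libraries, and the diets overlap in the ratios.

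Each dose was compared with the basal diet to ask which subunits differ with succinate in the feed. limma-trend was fitted to log2(FPKM + 1) over all genes and all 4 diets, and differences below are fitted differences on that scale, which understates those of scarce genes. No member passed an adjusted p of 0.05 (Benjamini-Hochberg over 12095 genes) in any of the 3 comparisons, for the slope on succinate percent or for any difference among the diets. For a single gene, 3 values against 3 allow no exact p smaller than 0.1, so none is given. The 3 comparisons share the basal libraries, and differences between doses were not tested.

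At 0.5% succinate neither particle had a median far from that of all genes. The median log2 difference was -0.01 for the 17 core genes and -0.07 for the 20 regulatory genes, beside -0.11 for all genes tested. PSMD10, a chaperone that escorts ATPases into the base, stood at 9.36, 8.35 and 10.1 FPKM at 0.5% succinate, against 13.9, 15.8 and 15.01 FPKM on the basal diet. All 3 succinate libraries were below all 3 basal libraries, with a log2 difference of -0.63 (SE 0.27). It was the 1 member with an unadjusted p under 0.05, beside 4.65% of all genes (3.7% lower), and its adjusted p was 0.883. No member passed the adjusted threshold, as for 0.0% of all genes, also with limma-voom on recovered reads.

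Other members of the regulatory particle were also lower at 0.5% without overlap. They were PSMC4 and PSMC6 of the ATPases, PSMD11 and PSMD12 of the lid and the chaperone PSMD9, which with PSMD10 makes 6 of 37 members, beside 10.4% of all genes. PSMD12 stood at 21.1, 16.5 and 22.8 FPKM at 0.5% succinate, against 27.4, 23.7 and 24.9 FPKM on the basal diet, with a log2 difference of -0.33 (SE 0.22). No member was higher without overlap, beside 1.76% of all genes. The largest differences above 0 were 0.18 for PSMD8 of the lid, 0.14 for PSMB7 and 0.14 for the ATPase PSMC3. For PSMC3 the libraries stood at 109, 146 and 94.6 FPKM at 0.5% succinate, against 111, 105 and 97.2 FPKM on the basal diet, and without replicate 2 of the 0.5% diet its difference was -0.04. The sign of the members turned with the scaling: 9 of 17 core and 12 of 20 regulatory genes were below 0 as deposited, beside 70.6% of all genes, but 4 of 17 and 5 of 20 after TMM scaling, which moved the median of all genes to 0.00.

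At 1% succinate every tested core gene was lower than on the basal diet in the fit, and the core was further below it than the regulatory particle. The median log2 difference was -0.51 over the 17 core genes and -0.22 over the 20 regulatory genes, beside -0.04 over all genes. All 17 core genes and 16 of the 20 regulatory genes lay below 0, beside 54.6% of all genes. The alpha ring had a median of -0.54, the constitutive beta subunits -0.43, the inducible subunits -0.36, the chaperones -0.29, the ATPases -0.24, the lid -0.19 and the base subunits that are not ATPases -0.12.

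Among the gate-forming alpha subunits, PSMA5 stood at 38.1, 26.7 and 29.1 FPKM at 1% succinate, against 48.2, 49.2 and 45.8 FPKM on the basal diet. PSMA1 stood at 80.3, 55.7 and 48.8 FPKM at 1% succinate, against 95.7, 85.6 and 82.9 FPKM on the basal diet. PSMA4 stood at 48.99, 38.96 and 27.99 FPKM at 1% succinate, against 65.4, 53.1 and 52.4 FPKM on the basal diet. In all 3 genes the diets did not overlap, and replicate 1 was the highest of the 1% libraries and the nearest to the basal ones. The log2 differences were -0.61 (SE 0.17) for PSMA5, -0.54 (SE 0.18) for PSMA1 and -0.58 (SE 0.19) for PSMA4, with adjusted p-values of 0.197, 0.199 and 0.199 from limma. PSMA3 and PSMA6, whose diets did overlap, had differences of -0.71 (SE 0.26) and -0.52 (SE 0.19).

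Of the constitutive catalytic subunits, PSMB5 stood at 50.9, 39.9 and 36.5 FPKM at 1% succinate, against 69.8, 66.6 and 46.7 FPKM on the basal diet. PSMB6 stood at 67.2, 36.4 and 44.1 FPKM at 1% succinate, against 98.9, 66.97 and 63.5 FPKM on the basal diet. PSMB7 stood at 65.1, 47.01 and 45.3 FPKM at 1% succinate, against 69.7, 70.2 and 66.6 FPKM on the basal diet. The diets did not overlap for PSMB7, and for PSMB5 and PSMB6 replicate 1 of the 1% diet lay among the basal libraries. The log2 differences were -0.51 (SE 0.19), -0.64 (SE 0.25) and -0.40 (SE 0.17). PSMB4 stood at 127, 92.9 and 91.5 FPKM at 1% succinate, against 146, 150.1 and 122 FPKM on the basal diet, where replicate 1 again lay among the basal libraries. The structural beta subunits PSMB1, PSMB2 and PSMB3 had differences of -0.37, -0.39 and -0.51, the last without overlap.

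In the regulatory particle the differences at 1% had a median nearer to 0 and went both ways. PSMD10 stood at 14.6, 9.01 and 4.71 FPKM at 1% succinate, against 13.9, 15.8 and 15.01 FPKM on the basal diet, and replicate 1 lay within the basal range. The ATPase PSMC6 stood at 95.05, 60.4 and 45.8 FPKM at 1% succinate, against 95.9, 88.5 and 88.5 FPKM on the basal diet. Their log2 differences were -0.72 (SE 0.27) and -0.50 (SE 0.22). PSMD14 of the lid stood at 19.95, 14.1 and 13.7 FPKM at 1% succinate, against 22.6, 18.6 and 18.2 FPKM on the basal diet. PSMD2, a base scaffold that binds ubiquitin-like proteins, went the other way, with 56.96, 65.1 and 72.9 FPKM at 1% succinate, against 51.9, 58.5 and 64.1 FPKM on the basal diet. Its diets overlapped, and the log2 difference of 0.15 (SE 0.15) had a 95% interval of -0.17 to 0.48. PSMD11, the lid subunit with the least spread within diets, stood at 40.3, 38.7 and 39.6 FPKM at 1% succinate, against 36.9, 36.7 and 40.3 FPKM on the basal diet, and PSMD3 of the lid had a difference of 0.01 (SE 0.17).

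Of the 37 members, 16 had an unadjusted p under 0.05 at 1% succinate, all of them lower, beside 12.1% of all genes lower and 7.33% higher. These were 13 of the 17 core genes and 3 of the 20 regulatory genes. No member passed the adjusted threshold, as for 0.0% of all genes, also with limma-voom, and the smallest adjusted p was 0.197. The 1% and basal libraries did not overlap for 10 members, all lower, beside 10.7% of all genes lower and 7.14% higher. The count of calls rested on 1 library. Without replicate 1 of the 1% diet, 17 members passed, 12 of the core and 5 of the regulatory particle, all lower, beside 21.8% of all genes and 12.6% in that direction. Without replicates 2 and 3 of that diet, which stood apart, 1 library was left at 1%, and the medians were -0.13 for the core and 0.02 for the regulatory particle. Leaving out any other library gave 0 members.

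**Figure D3:**
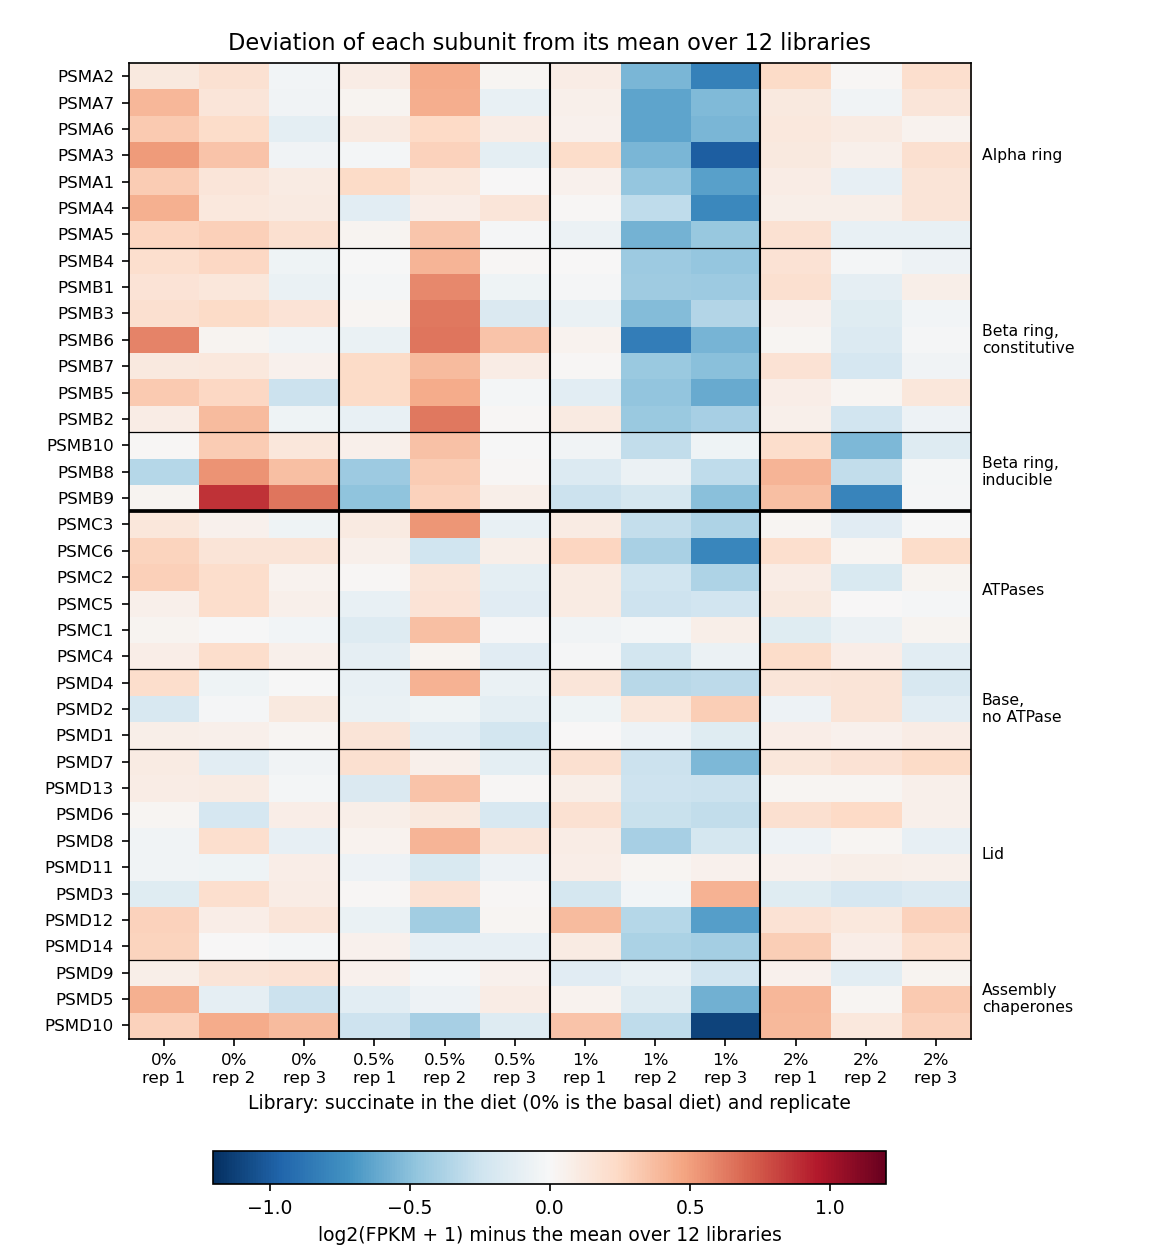
Deviation of each tested subunit from its own mean over the 12 libraries, on the log2(FPKM + 1) scale, with genes in rows by subgroup and libraries in columns by succinate in the diet and replicate. Replicates 2 and 3 at 1% succinate hold the lowest values of the 14 constitutive core rows but of none of the 3 inducible ones, and replicate 1 at 1% is near 0.

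**Figure D4:**
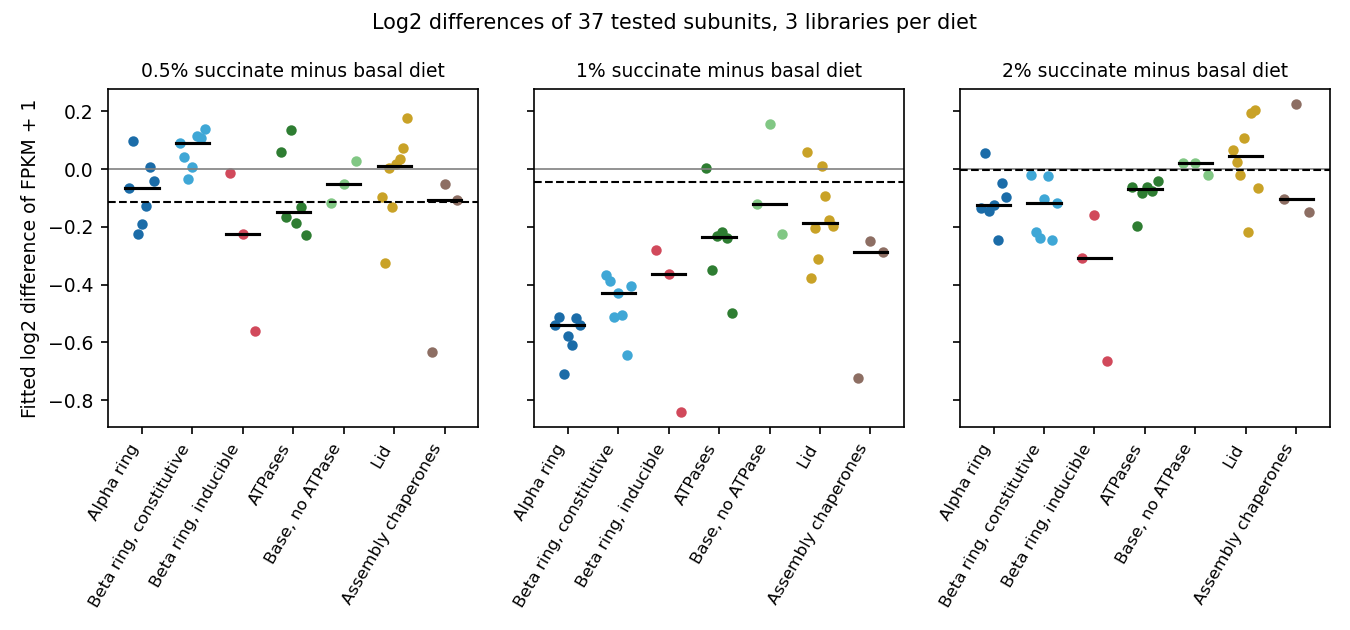
Fitted log2 difference from the basal diet for the 37 tested subunits at each dose, by subgroup; points are genes, the short bars are subgroup medians and the dashed line is the median of all genes tested. At 1% succinate all 17 core genes lie below 0, with a median of -0.51, and the regulatory particle has a median of -0.22.

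Averaged per library, the same values show which libraries held the split, and they are not a further test of it. The core score of a library, the mean deviation of the 17 core genes from their means on the log2 scale, was -0.01, -0.46 and -0.52 at 1% succinate, against 0.22, 0.27 and 0.06 on the basal diet. The regulatory score was 0.08, -0.21 and -0.29 at 1% succinate, against 0.11, 0.08 and 0.04 on the basal diet. For the core, replicate 1 of the 1% diet lay at the mean of all libraries. The highest core score of all was 0.39, in replicate 2 of the 0.5% diet, whose regulatory score was 0.06. In replicate 2 of the 2% diet the core score was -0.14 and the regulatory score 0.03.

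Core and regulatory genes differ in length without overlap: the tested core genes measure 730 to 1278 bases and the regulatory genes 1293 to 3813 bases. At 1% succinate the medians of the members lay near those of all genes of their length up to 2000 bases. Under 1000 bases, the 13 members, all of the core, had a median log2 difference of -0.51, beside -0.52 for all 1035 genes of that length. From 1000 to 1500 bases the 9 members, 4 of the core and 5 of the regulatory particle, were at -0.35, beside -0.34 for 1158 genes. The 4 core genes of that class, PSMA1, PSMA4, PSMB5 and PSMB8, all lay below -0.34. From 1500 to 2000 bases the 7 members were at -0.23, beside -0.22 for 1295 genes. From 2000 to 3000 bases the 6 members were at 0.01, beside -0.10 for 2301 genes, and the 2 members from 3000 to 4000 bases, PSMD1 and PSMD12, were at -0.25, beside -0.01 for 1837 genes. The Spearman correlation of difference with length, across genes, which are not independent replicates, was 0.70 over the 37 members and 0.55 over all genes. Once a smooth trend on length was removed from each library, the medians at 1% were -0.10 for the core, with 11 of 17 below 0, and 0.05 for the regulatory particle, with 8 of 20 below 0. Whether the length trend of the libraries has a part in the difference between the particles was not tested.

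**Figure D5:**
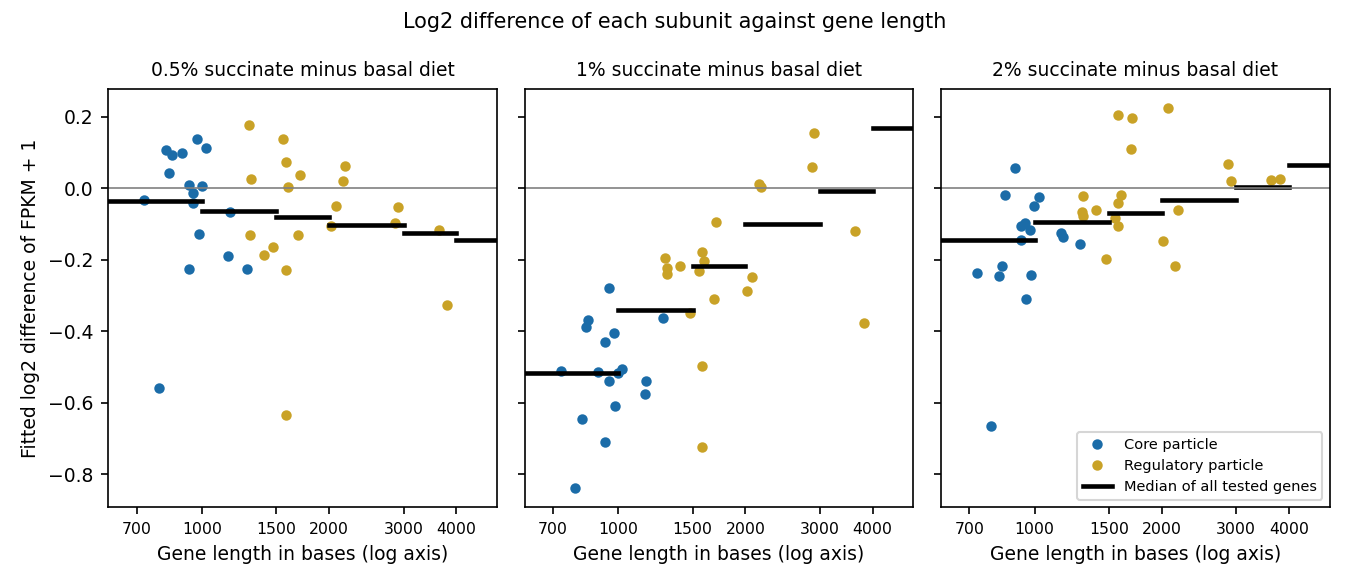
Fitted log2 difference from the basal diet against gene length in bases (log axis) for the 37 tested subunits at each dose; the horizontal black bars are the median of all tested genes in each length class. At 1% succinate the 13 core genes under 1000 bases had a median of -0.51, beside -0.52 for all genes of that length. The 4 longer core genes lay below the median of their length class.

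At 2% succinate the medians were nearer to those of all genes than at 1%. The median log2 difference was -0.14 for the core, with 16 of 17 genes below 0, and -0.03 for the regulatory particle, with 12 of 20 below 0, beside 0.00 and 50.7% below 0 for all genes. Under 1000 bases, the 13 members had a median of -0.15, beside -0.14 for all 1035 genes of that length. PSMA5 stood at 45.8, 37.6 and 37.6 FPKM at 2% succinate, against 48.2, 49.2 and 45.8 FPKM on the basal diet, with a log2 difference of -0.24 (SE 0.17). The largest differences above 0 were in the regulatory particle. The lid subunit PSMD7 stood at 96.1, 98.5 and 103 FPKM at 2% succinate, against 93.4, 79.9 and 84.6 FPKM on the basal diet, with a log2 difference of 0.20 (SE 0.18). PSMD5 had 0.22 (SE 0.21) and the lid subunit PSMD6 0.20 (SE 0.17), both with overlap. The diets did not overlap for PSMA5, PSMB3 and PSMD9, which were lower, beside 6.75% of all genes, and for PSMD7, which was higher, beside 7.43%. PSMB9 was the 1 member with an unadjusted p under 0.05, beside 3.17% of all genes (1.57% higher and 1.6% lower). No member passed the adjusted threshold, as for 0.0% of all genes, also with limma-voom.

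The tested core genes overlapped the basal diet at 0.5% and 2% succinate, except PSMA5 and PSMB3 at 2%. At 0.5% and 2% succinate, PSMA1 stood at 90.6, 84.4 and 77.2 FPKM and at 82.3, 72.1 and 86.1 FPKM. PSMA4 stood at 44.2, 51.2 and 53.8 FPKM at 0.5% and at 50.8, 50.8 and 54.1 FPKM at 2%. PSMA5 stood at 41.1, 50.6 and 39.7 FPKM at 0.5%. At 0.5% the 7 tested alpha subunits had log2 differences from -0.22 for PSMA3 to 0.10 for PSMA2. PSMB4 stood at 126, 168 and 128 FPKM at 0.5% and at 142, 124 and 121 FPKM at 2%. At 2% its difference was -0.10 (SE 0.19). PSMB5 stood at 65.6, 76.5 and 54.9 FPKM at 0.5% and at 59.01, 56.7 and 61.6 FPKM at 2%. PSMB6 stood at 61.8, 103 and 83.02 FPKM at 0.5% and at 66.5, 58.4 and 64.7 FPKM at 2%. PSMB7 stood at 75.8, 84.2 and 68.4 FPKM at 0.5% and at 72.6, 56.00 and 62.5 FPKM at 2%. Replicate 2 of the 0.5% diet was the highest of all 12 libraries for PSMB4, PSMB5, PSMB6 and PSMB7.

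In the regulatory particle PSMD4 stood at 133, 111 and 114 FPKM on the basal diet, at 107, 153 and 108 at 0.5%, at 126, 90.4 and 91.8 at 1% and at 126, 127 and 99.6 at 2% succinate. Its highest library was again replicate 2 of the 0.5% diet, and every dose overlapped the basal diet. PSMC3 stood at 108, 82.5 and 77.8 FPKM at 1% and at 103, 91.6 and 101 FPKM at 2%. PSMC6 stood at 83.04, 67.1 and 83.4 FPKM at 0.5%, where replicate 2 was the lowest, and at 91.7, 80.9 and 93.1 FPKM at 2%. PSMD2 stood at 55.9, 57.2 and 54.5 FPKM at 0.5% and at 56.8, 66.3 and 54.1 FPKM at 2%. All 3 overlapped the basal diet at 2% succinate. PSMD10 stood at 15.1, 12.4 and 13.9 FPKM at 2%, and the chaperone PSMD5 at 23.7, 16.1 and 14.4 FPKM on the basal diet, at 15.9, 16.6 and 18.7 at 0.5%, at 18.00, 15.6 and 11.4 at 1% and at 23.3, 17.7 and 21.9 at 2% succinate, with overlap at each dose.

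Within the lid, none of the 8 genes had an unadjusted p under 0.05 for any difference among the diets. Differences between lid subunits were not tested, and the values of those named are given here. PSMD6 stood at 54.1, 46.2 and 56.3 FPKM on the basal diet, at 56.1, 57.96 and 46.7 at 0.5%, at 60.6, 44.04 and 43.2 at 1% and at 60.98, 62.95 and 55.5 at 2% succinate. PSMD8 stood at 45.9, 54.6 and 44.3 FPKM on the basal diet, at 48.7, 63.3 and 52.5 at 0.5%, at 50.3, 35.6 and 40.8 at 1% and at 45.3, 48.2 and 44.2 at 2% succinate. PSMD3 stood at 27.3, 35.04 and 32.5 FPKM on the basal diet, at 30.6, 34.4 and 30.7 at 0.5%, at 26.1, 29.6 and 41.1 at 1% and at 27.4, 26.3 and 27.03 at 2% succinate. For PSMD6 and PSMD8, replicates 2 and 3 of the 1% diet were the lowest of the 12 libraries, while PSMD3 had its highest value in replicate 3 of that diet. PSMD7 stood at 100.1, 91.4 and 80.5 FPKM at 0.5% and at 99.7, 72.7 and 59.95 FPKM at 1%, and PSMD11 at 36.4, 33.5 and 36.4 FPKM at 0.5% and at 39.5, 40.02 and 39.8 FPKM at 2%. PSMD12 stood at 29.4, 17.5 and 13.8 FPKM at 1% and at 25.4, 24.6 and 27.4 FPKM at 2%, and PSMD14, the catalytic lid subunit, at 19.3, 17.3 and 17.2 FPKM at 0.5% and at 22.95, 19.6 and 21.5 FPKM at 2%. Replicate 3 of the 1% diet was the lowest of the 12 libraries for PSMD7, PSMD12 and PSMD14.

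PSMD9, a chaperone of ATPase ring assembly, was below the basal diet without overlap at each dose. It stood at 19.3, 20.47 and 20.8 FPKM on the basal diet, at 18.9, 18.1 and 19.00 at 0.5%, at 16.6, 17.1 and 15.5 at 1% and at 19.04, 16.7 and 18.7 at 2% succinate. It is named here because of these values and not by the rule for named genes. Of all genes, 10.4%, 10.7% and 6.75% were lower without overlap at 0.5%, 1% and 2%. The share of genes lower at every dose was not counted. The log2 differences were -0.11, -0.29 and -0.15 at 0.5%, 1% and 2% (SE 0.12 each), with adjusted p-values of 0.897, 0.237 and 0.999 from limma, all against the same basal libraries.

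No graded change with dose was called. For the slope on succinate percent, 0 members passed, as for 0.0% of all genes, also with limma-voom, and 0 had an unadjusted p under 0.05, beside 3.21% of all genes (1.86% higher and 1.35% lower). All 17 core slopes were below 0, beside 44.4% of all genes, with a median of -0.08 per percent succinate, beside 0.01 for all genes. For any difference among the 4 diets, 0 members passed, as for 0.0% of all genes, also with limma-voom, and 8 had an unadjusted p under 0.05, beside 12.6% of all genes. These were PSMA1, PSMA2, PSMA5, PSMA6, PSMB5, PSMB6, PSMB7 and PSMD10, with an adjusted p of 0.396 each. Without replicate 1 of the 1% diet, 10 members passed this test, beside 11.1% of all genes.

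Among the tested members PSMB9 had the widest spread between libraries of a diet, with an SD of 0.42 on the log2 scale. PSMB9 stood at 7.48, 14.1 and 11.97 FPKM on the basal diet, at 4.94, 9.03 and 7.72 at 0.5%, at 5.95, 6.14 and 4.86 at 1% and at 9.62, 3.79 and 7.21 at 2% succinate. The 1% libraries were all below the basal ones, and at 0.5% and 2% the diets overlapped. The log2 differences were -0.56 (SE 0.30), -0.84 (SE 0.30) and -0.66 (SE 0.30), with adjusted p-values of 0.883, 0.206 and 0.999 from limma. Without replicates 2 and 3 of the 1% diet the difference at 1% was -0.77, and with the length trend removed it was -0.35.

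PSMB8 stood at 10.4, 20.1 and 17.5 FPKM on the basal diet, at 9.71, 16.9 and 13.6 at 0.5%, at 11.95, 12.8 and 10.7 at 1% and at 18.2, 10.8 and 13.2 at 2% succinate. Every dose overlapped the basal diet, whose replicate 1 was its lowest library. PSMB10 stood at 19.6, 24.04 and 21.3 FPKM on the basal diet, at 20.2, 24.9 and 19.3 at 0.5%, at 18.8, 15.5 and 18.6 at 1% and at 22.6, 13.02 and 17.3 at 2% succinate. The 1% libraries of PSMB10 were below all basal ones, by -0.28 on the log2 scale (SE 0.19), and the sign turned to 0.15 with the length trend removed.

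Markers of macrophages and dendritic cells, which carry immunoproteasomes, were mostly below the basal diet in the fit. All 11 tested markers lay below 0 at 0.5%, 9 of 11 at 1% and all 11 at 2%, beside 70.6%, 54.6% and 50.7% of all genes. At an unadjusted p under 0.05, 5, 5 and 4 of them were lower at 0.5%, 1% and 2%, beside 3.7%, 12.1% and 1.6% of all genes, and none passed the adjusted threshold. Their summed level was 158.5, 208 and 271 FPKM on the basal diet, 77.0, 145 and 172 at 0.5%, 131, 148 and 149 at 1% and 145, 125 and 144 at 2% succinate. T and natural killer cell markers summed to 3.03 to 13.7 FPKM. The part of these cells in the levels of the inducible subunits was not tested.

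Across the 12 libraries PSMB8 and PSMB9 went together. Pearson's r was 0.89 (permutation p = 7e-05, adjusted over 3 pairs 0.00021) and Spearman's rho 0.846 (permutation p = 0.00089, adjusted 0.00267). Without the 2 libraries farthest from the median of PSMB8, r was 0.83, and for deviations from the diet means it was 0.94. PSMB9 with PSMB10 had r = 0.763 and rho = 0.769 (permutation p = 0.00338 and 0.00484, adjusted 0.00507 and 0.00726), with r = 0.55 without the 2 farthest libraries. PSMB8 with PSMB10 had r = 0.636 and rho = 0.538 (permutation p = 0.0244 and 0.0744, adjusted 0.0244 and 0.0744), with r = 0.47 without the 2 farthest libraries. With the length trend removed, r was 0.85 for PSMB8 with PSMB9, 0.57 for PSMB9 with PSMB10 and 0.46 for PSMB8 with PSMB10. These values were not tested.

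The other core genes also went together as deposited, and less so with the length trend removed. Over the 91 pairs of the 14 constitutive core genes the median r over 12 libraries was 0.86, and it was 0.25 with the length trend removed. Over the 190 pairs of regulatory genes the median was 0.39 as deposited and 0.08 with the trend removed. Between the inducible and the other core genes the median over 42 pairs was 0.44 as deposited and -0.24 with the trend removed. All pairs share the 12 libraries and their depth, so these are descriptions.

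Genes that build or serve the proteasome were read from lists set beside the members. At 1% succinate all 5 chaperones of core assembly (POMP and PSMG1 to PSMG4) were below the basal diet, with a median log2 difference of -0.56, and 3 of 5 had an unadjusted p under 0.05, beside 12.1% of all genes lower. These 5 genes measure 855 to 1280 bases, and all genes had medians of -0.52 under 1000 bases and -0.34 from 1000 to 1500 bases. POMP, the maturation factor of the core, stood at 72.0, 38.7 and 35.2 FPKM at 1% succinate, against 89.3, 76.5 and 77.5 FPKM on the basal diet, and again replicate 1 was the nearest to the basal libraries. Its log2 difference was -0.80 (SE 0.24) with an adjusted p of 0.197 from limma. PSMG1 had -0.56 (SE 0.23). PSME1, a subunit of the interferon-inducible activator cap, had a difference of -0.51 (SE 0.20), and its partner PSME2 -0.34 (SE 0.20). Their genes measure 1004 and 801 bases. UCHL5, a deubiquitinase bound to the cap, had -0.66 (SE 0.19), and its receptor on the cap, ADRM1, 0.16 (SE 0.17). USP14, of the same list, had -0.09 (SE 0.21).

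Among other partner genes the differences at 1% went both ways. PSME4, an alternative cap whose gene measures 7400 bases, had a log2 difference of 0.45 (SE 0.18). All tested genes of 4000 bases or more had a median of 0.17 at 1% succinate. NFE2L1, the transcription factor NRF1 that drives proteasome genes when the proteasome is inhibited, stood at 87.5, 109.6 and 116 FPKM at 1% succinate, against 63.4, 76.4 and 89.8 FPKM on the basal diet, a difference of 0.45 (SE 0.19) with overlap, and its gene measures 4404 bases. DDI2, the protease that releases NRF1, had 0.45 (SE 0.17). The 2 other genes of that list, named to complete it, lay below 0: NGLY1, which removes sugar chains from NRF1, had -0.44 (SE 0.24), lower without overlap, and the related factor NFE2L2 -0.17 (SE 0.17). In the list of ubiquitin genes and shuttles, 3 of 19 were higher and 2 lower at an unadjusted p under 0.05, beside 7.33% of all genes higher and 12.1% lower. Among the lower ones was the ubiquitin gene RPS27A, with a difference of -0.97 (SE 0.31). Among the higher ones was ECPAS, whose gene measures 6113 bases, with 0.43 (SE 0.16). Of the interferon response genes, 3 of 9 were lower at that threshold and none higher, with IFIT1 at -0.92 (SE 0.28). ISG15 had -0.56 (SE 0.29) at 1% but 0.68 (SE 0.29) at 0.5% succinate, with overlap at each. In MHC class I peptide loading at 1%, TAP1 had a difference of 0.04 (SE 0.22) and B2M -0.55 (SE 0.40). ERAP1 had 0.40 (SE 0.25) and CANX -0.22 (SE 0.17). None of these partner genes passed the adjusted threshold at any dose.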

How the data were processed

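Per the submitters' processing notes, the tools were cutadapt 1.15 for trimming, HISAT2 2.1.0 for alignment and HTSeq 0.9.1 for counting; genome build and strand setting are not given in the sources used here. The authors deposited FPKM per gene with gene lengths. Multiplied by length, 100% of the FPKM values came out as whole reads (tolerance 0.01), from which reads per library were recovered. All 39 members matched the RefSeq gene table (assembly ARS-UI_Ramb_v3.0), which was used for names and chromosome numbers only. No sequences or promoter motifs were analysed here.

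The unit called for limma 3.58.1 (R 4.3.3, trend and robust moderation) on log2(FPKM + 1), with 4 diets over 12 libraries, a minimum of 1 FPKM in 3 or more libraries, two-sided tests and Benjamini-Hochberg adjustment over 12095 genes at 0.05. The model was tested on simulated data. Alternatives were a pseudocount of 0.1, no filter, a filter of 5 FPKM, TMM, quantile normalization, removal of a length trend, fewer libraries, a replicate block, limma-voom on recovered reads and library weights. Members were named with their values by rule. These were the inducible subunits and those they replace, and the highest and lowest of each particle. They also included the 3 smallest p in each direction per dose and the smallest F test p per subgroup. Of the partners, PSME1, PSME2, POMP, ADRM1, NFE2L1, TAP1 and B2M were named whatever their p. Up to 2 partners per list were named by the smallest F test p. Members and lists were chosen with earlier results of these data known.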

Additional observations from a re-analysis of the deposited data

How the results depend on the processing

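No member passed the adjusted threshold in any test under any alternative except without replicate 1 of the 1% diet; where both 1% libraries that stood apart were left out, the 1 library left was assumed to vary like the other diets, so that count says little. Leaving out each library in turn gave 0 to 17 members at 1% succinate and 0 to 10 for any difference among diets, and 0 for the other tests; the counts of 17 and 10 came without replicate 1 of the 1% diet. At 1% succinate the core median of -0.51 was -0.30 after quantile normalization, -0.10 with the length trend removed and -0.13 without both 1% libraries that stood apart, and ran from -0.73 to -0.39 when 1 library was left out. The regulatory median of -0.22 was -0.0074, 0.0529 and 0.0153 under the same 3 alternatives and ran from -0.34 to -0.15 when 1 library was left out. At 0.5% succinate the regulatory median of -0.07 was 0.0588 after TMM scaling. The ranges on leaving out 1 library were -0.13 to 0.07 for the core and -0.09 to -0.06 for the regulatory particle at 0.5%, and -0.20 to -0.07 and -0.06 to -0.02 at 2%. The p-values of the ratios ran from 0.146 to 0.871 for PSMB8 to PSMB5, 0.0773 to 0.715 for PSMB9 to PSMB6 and 0.0713 to 0.384 for PSMB10 to PSMB7. The cause of these shifts was not tested.

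Of the named members, PSMB10 at 0.5% stood at -0.0145 in the main setting, 0.12 with TMM, 0.058 with quantile normalization and 0.0175 with the length trend removed, and ran from -0.1216 to 0.0609 when 1 library was left out. At 1% it was 0.15 with the length trend removed. On leaving out 1 library, PSMB8 at 2% ran from -0.4207 to 0.0208 and PSMC3 at 0.5% from -0.0387 to 0.2743. At 1%, without both libraries that stood apart, PSMD2 was -0.025 and PSMD3 -0.26, and PSMD3 was -0.09 without basal replicate 1 and -0.17 without 1% replicate 3.

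Replicate numbers did not pair the libraries: the correlation of deviations had a median of -0.02 over 18 pairs with the same number and 0.05 over 36 pairs with different numbers. With the replicate block, 0 members and 0 genes passed at each dose, and the ratios had exact permutation p-values of 0.573, 0.524 and 0.290 in the order above. Depth limits PSMB11, where 0 reads is compatible with as many as 3, for counting error only.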
